A study of Macaca fascicularis with 8 samples.

Results

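Broad accessible domains are stretches of several kilobases in which the DNA of many nuclei is open without a clear gap. The regions described here had a called peak in the lists of 7 organs of the cynomolgus monkey and, in at least 1 of these organs, a single peak of 5000 bp or wider (called broad below). They were selected on peak width, so the widths are given as a description and not as a result. Peaks of colon, heart, kidney, male liver, lung, spleen and uterus that overlapped by at least 1 bp were merged into 245443 regions. Of these, 20204 had a peak in all 7 lists, and 1844 of the 20204 (9.13%) held a broad peak and are the members. The other 18360 regions with a peak in all 7 lists serve as the comparison. A further 836 of the 2680 merged regions with a broad peak lacked a peak in at least 1 list and were left out.

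The study mapped chromatin accessibility by single-cell ATAC sequencing (scATAC-seq), in which the Tn5 transposase cuts open DNA in nuclei and every fragment carries the barcode of its droplet. Each organ was represented by 1 library from an adult animal labelled as normal, with no treatment or genetic change named. Colon, heart, lung and uterus came from the female monkey and kidney, liver and spleen from the male monkey, so organ and library cannot be told apart, nor organ and animal between organs of different monkeys, and no test between organs was possible. A second liver library, from the female monkey, was not used to choose the members. The identity of the organs was not checked against marker genes, because the peaks are not paired with genes and the sources used here do not name their genome build.

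Open chromatin in a tissue mostly takes the form of short sites, such as promoters and enhancers, where bound factors displace nucleosomes. Where several such sites lie close together, or where a gene is very highly transcribed, the open stretches can join into a domain many times longer than a single site. Such domains are known for their association with genes that define the identity of a cell type and with genes that are used in nearly every cell. A peak caller draws their borders from the pooled signal of all nuclei of a library, so the called width depends on how many nuclei are open, on how open they are and on the sequencing depth.

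After removal of barcodes with fewer than 1000 counts, the 7 libraries kept 5220 (heart) to 20019 (spleen) barcodes, with 40995276 (kidney) to 110748462 (colon) counts in peaks. The median count per barcode lay between 2276 in spleen and 7446 in colon. The female liver stood apart before any result was drawn, since only 728 of its 2110 barcodes and 1978404 counts passed the same minimum. Any pair of libraries shared 17 to 379 barcode sequences, which was 0.806% to 2.99% of the smaller library. The 3 deepest libraries (colon, lung and male liver) also had the most broad members, and the part of depth in this order was not tested.

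The widest member was chr2:107421660-107505277, covered in the male liver by a single peak of 83202 bp. In the other organs its widest peak measured 1994 bp in heart, 1652 bp in kidney, 1578 bp in lung, 1315 bp in colon, 845 bp in spleen and 732 bp in uterus, with 4 to 11 separate peaks per organ. Its level in the male liver was 1328 counts per 1000000 counts in peaks (CPM; 95% Poisson interval 1318 to 1339). The CPM was 79.3 in kidney, 62.9 in heart, 48.4 in colon, 45.1 in spleen, 37.5 in uterus and 36.5 in lung. The same stretch of the genome was thus called as a single peak in the male liver and as a row of short peaks elsewhere. Since no peaks of a list were closer than 501 bp, a single peak can hold short gaps. A count in the library's own peaks of this region was found in 79.2% of the male liver barcodes. In the other organs it was found in 6.70% (spleen) to 24.2% (heart) of the barcodes. These peaks covered 99.5% of the region in the male liver and 1.85% (uterus) to 9.04% (kidney) elsewhere, so the stretches counted differed. Depth differed too, with a median of 2276 counts per barcode in spleen and 6818 in the male liver. All CPM here and below likewise count only DNA inside the library's own peaks.

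**Figure D1:**
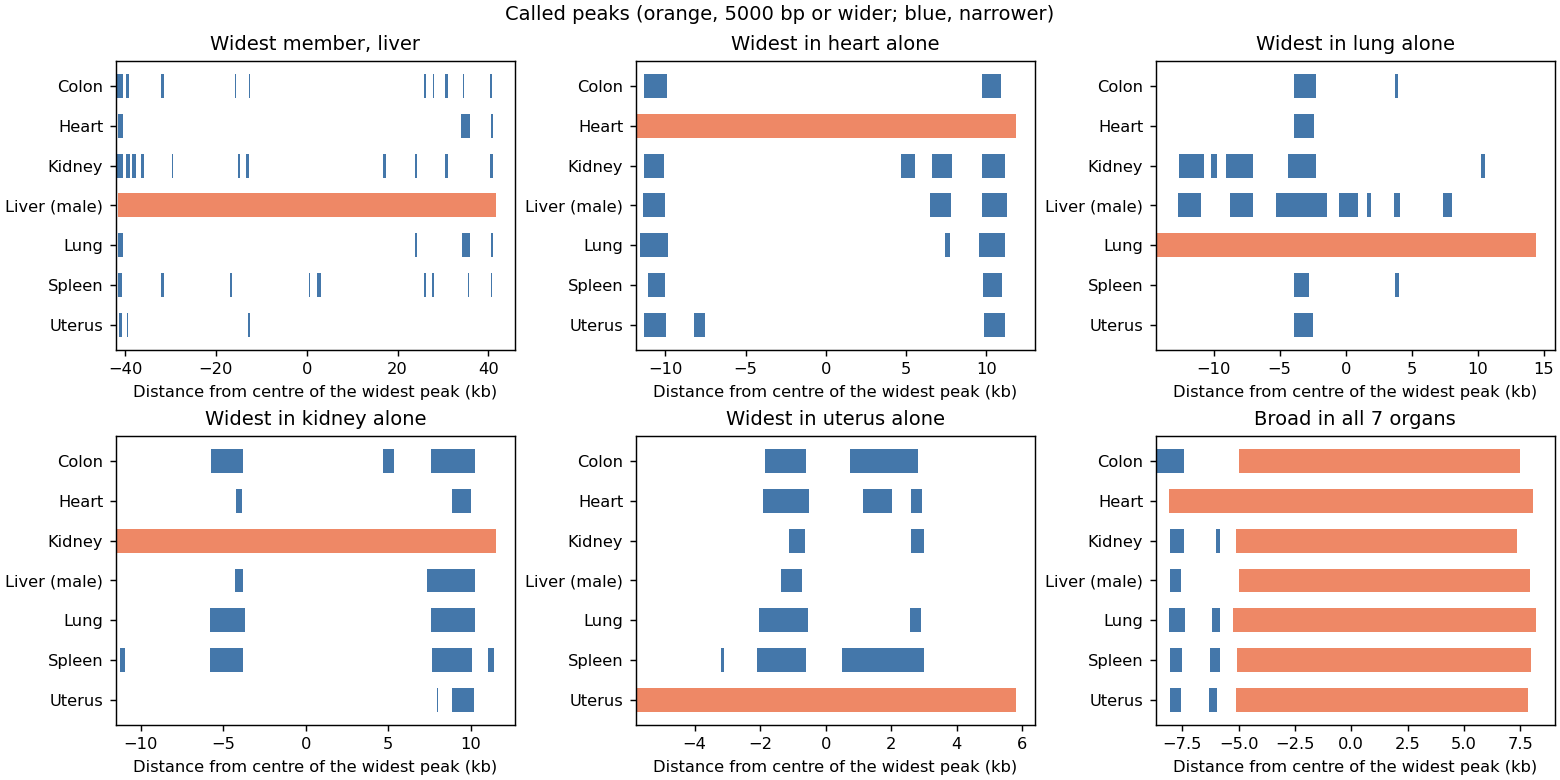
Called peaks of 6 members in the 7 organs, with 1 row per organ and the distance in kb from the center of the member's widest peak on the horizontal axis. Orange bars are peaks of 5000 bp or wider and blue bars narrower peaks, and in the first 5 panels 1 organ has a single long bar where the others have short separate bars, whereas in the last panel all 7 organs have a long bar over the same stretch.

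For each of the other organs, the member with the widest peak among those broad in that organ alone is described next. In heart, chr2:101144160-101167821 formed 1 peak of 23662 bp, whereas its widest peak in the other organs was 1160 bp (spleen) to 1749 bp (lung). Its CPM was 364 in heart, 71.2 in uterus, 43.6 in kidney, 40.9 in lung, 39.0 in the liver of the male, 19.4 in spleen and 17.4 in colon. All other organs kept short peaks near both ends of this domain and left most of its middle uncalled, with 9.37% (spleen) to 20.4% (kidney) of the region covered.

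In lung, chr8:22187428-22216168 was covered by a peak of 28741 bp. The widest peak elsewhere ran from 1111 bp in spleen to 3856 bp in the male liver, where the region was divided into 7 peaks. The CPM was 463 in lung, 72.6 in kidney, 72.1 in the male liver, 36.8 in uterus, 21.0 in heart, 14.5 in colon and 14.2 in spleen. The lung value was thus far above the others, and kidney and male liver, whose CPM differed by less than their Poisson intervals, came next.

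In kidney, chr6:174561148-174584153 formed a peak of 23006 bp, against 1165 bp in heart to 2872 bp in the male liver. Its CPM was 332 in kidney and between 15.9 (male liver) and 51.8 (lung) in the other organs. In uterus, chr6:146735163-146746747 measured 11585 bp, with 483 bp (kidney) to 2506 bp (spleen) elsewhere. Its CPM was 326 in uterus, 34.0 in spleen, 28.0 in heart, 13.7 in lung, 12.5 in colon, 4.66 in kidney and 2.35 in the male liver. In both regions the organ with the broad peak stood alone, and the remaining organs did not come near its level.

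The widest members broad in spleen alone and in colon alone were of another kind. In spleen, chr12:128576873-128587448 had a peak of 8527 bp and a CPM of 160, but lung, with a widest peak of 4854 bp, reached 85.9 and colon, with 3025 bp, reached 60.0. In colon, chr9:55005519-55016939 had a peak of 10754 bp, while the widest peak was 2009 bp (uterus) to 3297 bp (lung) elsewhere. Its CPM was 95.5 in colon (95% Poisson interval 92.9 to 98.1) and 92.3 in lung (89.7 to 94.9). The other organs lay below, with 80.4 in kidney, 73.8 in spleen, 73.0 in heart, 71.5 in uterus and 43.2 in the male liver. In CPM over all peaks, the colon domain was therefore long without holding clearly more counts than the lung peaks in this region. This depended on the scaling, since regions with a peak in every list held 60.4% of the colon counts and 68.9% of the lung counts. Scaled to the counts in those regions, colon lay further above lung. The peaks of the other organs covered less of this region, 21.5% (uterus) to 58.6% (lung) against 94.2% in colon.

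Of the 10 members with the widest single peak, 9 had it in the male liver. At chr11:102163206-102213890, the male liver peak of 50685 bp stood against 235 bp in uterus to 1242 bp in kidney. Its CPM was 341 in the male liver, 33.3 in kidney and 3.78 (colon) to 6.04 (uterus) in the other organs, the lowest levels outside the broad organ among these 10. At chr15:8762831-8803798, with 40968 bp in the male liver, kidney held 286 CPM beside 521 in the male liver, and spleen held 9.98. Kidney thus shared much of the accessibility of this liver domain without a broad peak, its widest one being 4368 bp.

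The remaining 6 male liver peaks among the 10 measured 53395 bp (chr11:56260084-56313595), 49802 bp (chr15:4070200-4120001), 49714 bp (chr14:2389998-2442029), 42490 bp (chr14:8941148-8983885), 34045 bp (chr7:64350576-64384620) and 33180 bp (chr14:7556165-7589344). Of these 6, the second was also broad in kidney and lung, the third in every organ but kidney, the fourth in all organs and the first in lung. The only member of the 10 that was widest outside the liver was chr11:51176705-51209226, with 32522 bp in heart, 13335 bp in kidney, 7783 bp in lung, 7486 bp in spleen, 7415 bp in the male liver, 2951 bp in uterus and 2799 bp in colon. Its CPM of 819 in heart was followed by 261 in uterus, 260 in spleen and 237 in lung. Uterus and spleen were therefore level in CPM over all peaks, although 1 of them had a broad peak and the other did not. This depended on the scaling. Regions with a peak in every list held 84.8% of the uterus counts and 65.9% of the spleen counts. Scaled to the counts in those regions, spleen, which had the broad peak, lay above uterus.

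Some members were long chains of sites. The largest number of separate peaks in 1 organ was 14, at chr15:4070200-4120001 in kidney, where the male liver had 1 peak. At chr14:2389998-2442029 spleen had 12 peaks and the male liver 2, and at chr7:165929759-165963951 kidney had 12 and the male liver 2. The last of these reached 31992 bp in the male liver and 2943 bp (colon) to 4088 bp (kidney) in the other organs.

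At the opposite end, 43 members (2.33%) were broad in all 7 organs. The most even of the members named here was chr14:8891823-8908669, with 12445 bp in colon, 12454 bp in kidney, 12915 bp in the male liver, 12981 bp in uterus, 13016 bp in spleen, 13415 bp in lung and 16153 bp in heart. The widest peak was 1.30 times the narrowest, and the stretch covered in every list was 12319 bp long. Its CPM ran from 143 in the male liver over 156 in colon, 234 in lung, 262 in kidney, 282 in heart and 321 in spleen to 419 in uterus. Equal width therefore went along with different counts, since colon and kidney differed in CPM and hardly in width.

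A second such member lay nearby on the same chromosome. At chr14:8941148-8983885, the peak measured 9525 bp in uterus, 15930 bp in colon, 16701 bp in lung, 16759 bp in heart, 20702 bp in spleen, 36261 bp in kidney and 42490 bp in the male liver. The CPM was 303 in colon, 494 in lung, 634 in uterus, 650 in spleen, 669 in heart, 750 in kidney and 776 in the male liver, and colon was thus lowest although its peak was not the narrowest. The highest CPM of the named members broad in all organs belonged to chr19:1003824-1049291, with 499 in colon to 1355 in uterus and widths from 11504 bp in colon to 27281 bp in heart. The other named ones, chr2:10169312-10186168 and chr11:52138826-52163485, spanned 10194 bp (spleen) to 15318 bp (colon) and 9726 bp (kidney) to 24660 bp (male liver).

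The study displays a window around EGFL7, a gene for a factor secreted by endothelial cells, which line blood vessels. The window was matched by position only, on the assumption that it is given in the coordinates of the deposited peaks, whose build is not known. On that basis 2 members overlapped it. The longer one, chr15:1785716-1810366, was broad in all 7 organs, with 24513 bp in lung, 18918 bp in heart, 15524 bp in the male liver, 10501 bp in kidney, 7224 bp in spleen, 6137 bp in uterus and 5037 bp in colon. Its CPM was 337 (95% Poisson interval 330 to 344) in heart and 330 (325 to 335) in lung, followed by 136 in uterus, 128 in the male liver, 115 in spleen, 67.7 in kidney and 48.1 in colon. Heart and lung, whose intervals overlapped, were the most accessible, and colon just passed the width limit. Unlike most members broad in all organs, it was unevenly shared among barcodes, as given below. The other, chr15:1766456-1776654, was broad in the male liver alone (8772 bp) and had its highest CPM there (70.8) and in heart (66.6), against 4.98 in kidney. On the same assumption, no member overlapped the window that the study shows for JCHAIN.

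The limit of 5000 bp cut through a continuous range of widths. Just inside it were chr15:14514633-14519989 (5008 bp, colon), chr5:98963239-98968247 (5009 bp, colon) and chr19:50985468-50990477 (5010 bp, male liver). Just outside were chr1:83884681-83889747 (4999 bp), chr9:93772482-93777480 (4999 bp) and chr7:18197359-18203003 (4998 bp), all widest in colon. At chr5:98963239-98968247 the widest peaks of heart, kidney, male liver, lung and spleen measured 4369 bp to 4544 bp, so that this member counted as broad in colon alone by a narrow margin.

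Over all members, the male liver had the most broad peaks, with 986 members (53.5%), followed by lung with 647 (35.1%), colon with 642 (34.8%), spleen with 370 (20.1%), heart with 343 (18.6%), kidney with 316 (17.1%) and uterus with 191 (10.4%). Of all regions with a peak in the 7 lists, the share with a broad peak was 4.88% in the male liver, 3.2% in lung, 3.18% in colon, 1.83% in spleen, 1.7% in heart, 1.56% in kidney and 0.945% in uterus, which are those counts over the larger set. Broad in 1 organ alone were 541 members for the male liver, 226 for colon, 146 for lung, 63 for heart, 51 for kidney, 49 for spleen and 16 for uterus. The male liver peaks were also the longest, with a median of 7556.5 bp where broad, against 6038 bp (colon) to 6461 bp (lung) in the other organs. The uterus list was the shortest, with 37159 peaks against 68713 (heart) to 110993 (male liver) in the others. When every list was reduced to its 37159 peaks with the most counts, 1463 members were left. The male liver still led with 799 of them and uterus was still last with 173. Counts were summed over each peak, so this cut favors wide peaks. It cannot tell whether list length or depth had a part in the order of the organs.

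**Figure D2:**
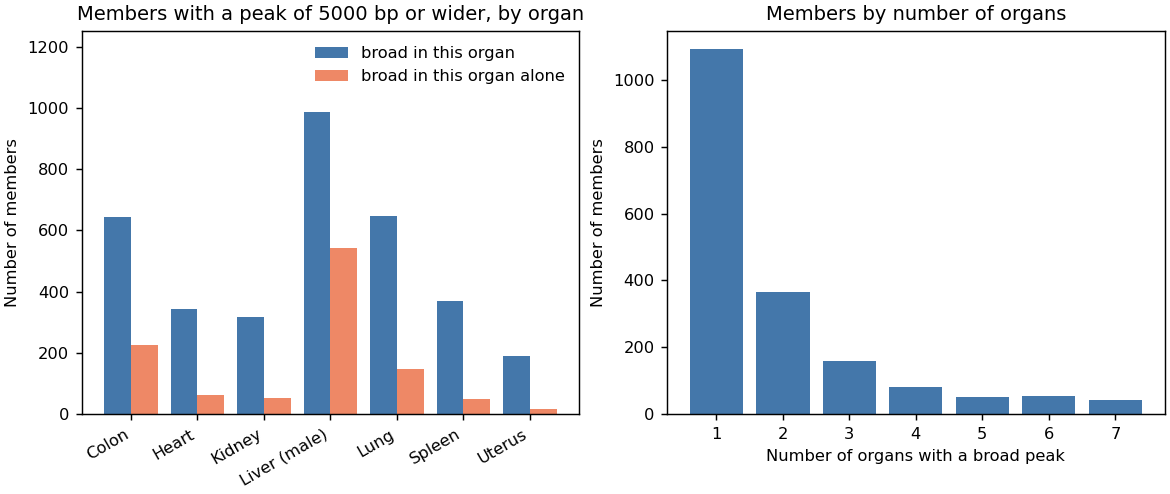
Number of members with a peak of 5000 bp or wider in each organ (left, blue, with those broad in that organ alone in orange) and number of members by how many of the 7 organs have such a peak (right). The male liver has 986 broad members, 541 of them broad there alone, and 1092 of the 1844 members are broad in a single organ.

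Where a member was not broad, it was more often divided than simply shorter in every organ but uterus. It was split into several peaks in 49.5% (uterus) to 75.1% (kidney) of the members that were not broad in that organ and formed a single shorter peak in the rest. The median width of the widest peak was then 1673 bp in uterus, 2008 bp in spleen, 2149 bp in heart, 2183 bp in kidney, 2333 bp in the male liver, 2392 bp in colon and 2595 bp in lung. In the other regions with a peak in all 7 lists, the median width was 846 bp (uterus) to 1422 bp (colon). The members were therefore longer than those regions even in organs where they were not broad.

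A broad peak in a single organ was the most frequent state, found for 1092 members (59.2%). A further 366 members had 2 broad organs, 159 had 3, 80 had 4, 51 had 5, 53 had 6 and 43 had 7. Of the 127 possible combinations of organs, 88 occurred, and 19 of them with 1 member each. Colon with spleen was the most frequent pair with no further broad organ (85 members), ahead of kidney with male liver and male liver with lung (61 each), colon with lung (34) and heart with lung (28). No member was broad in exactly heart and spleen, colon and uterus, kidney and uterus or spleen and uterus.

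Counting all members broad in both organs of a pair, colon and spleen shared 280, which was 43.6% of the colon members and 75.7% of the spleen members. Heart and lung shared 238 (69.4% and 36.8%), kidney and male liver 211 (66.8% and 21.4%) and lung and uterus 159 (24.6% and 83.2%). Male liver and lung, the organs with the most broad members, shared the largest number, 312 (31.6% and 48.2%). Spleen and uterus and also kidney and uterus shared the smallest, 87 each. The broad shares of all regions with a peak in the 7 lists were far lower, 4.88% for the male liver and 3.2% for lung. They were 3.18% for colon and 1.7% for heart. All percentages given here for pairs lay far above them. Members had to be broad in at least 1 organ, which raises the shares of all members. These were 53.5% for the male liver, 35.1% for lung, 34.8% for colon and 18.6% for heart. Male liver with lung lay below these raised shares. The 75.7% of the spleen members with colon lay far above. The 66.8% of the kidney members with the male liver lay only a little above. Kidney lay further above these shares with lung (53.8%) and heart (39.6%).

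**Figure D3:**
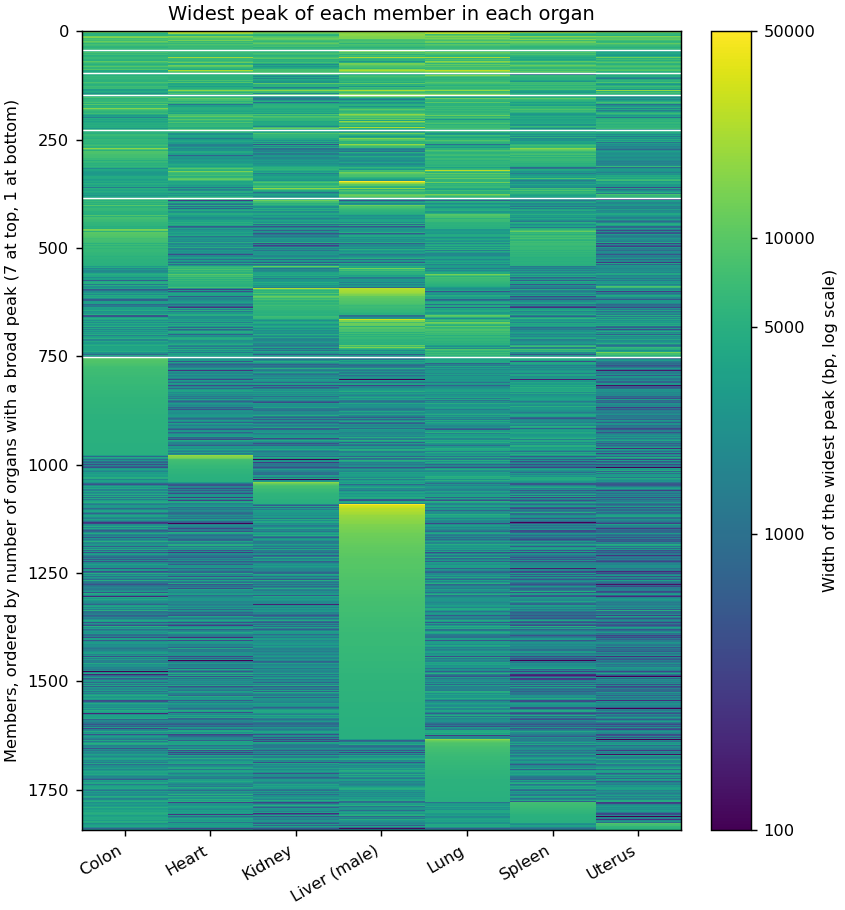
Width of the widest peak of each of the 1844 members (rows) in each organ (columns), on a log color scale from 100 to 50000 bp, with wider or narrower peaks drawn in the end colors. Rows are ordered by the number of organs with a broad peak, separated by white lines, and the light blocks in the lowest part mark the members broad in 1 organ alone, the largest of them in the male liver with 541 rows.

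The number of broad organs went along with the rest of a member's shape. The longest stretch covered by a peak in every list (the shared core) had a median of 1010.5 bp in members broad in 1 organ, 1407.5 bp for 2 organs, 1786 bp for 3, 2156.5 bp for 4, 2757 bp for 5, 3670 bp for 6 and 5786 bp for 7. In the other shared regions it was 634 bp. The mean CPM over the 7 organs had a median of 50.5 for 1 organ, 69.6 for 2, 96.6 for 3, 120 for 4, 133 for 5, 159 for 6 and 207 for 7, against 20.7 in the other shared regions. The ratio of the highest to the lowest CPM went the other way, from 5.05 for 1 organ to 2.58 for 7, with 3.27 in the other shared regions. Members broad in more organs thus held more counts and were more even among organs. They were also longer, with a median region of 6649.5 bp for 1 organ and 13664 bp for 7. The core is the overlap of the peaks of all 7 lists, and counts were summed inside those peaks. More broad organs therefore usually lengthen the core and raise the counts by construction. Per kb of called peak the levels lay closer. The medians ran from 11.3 CPM per kb (male liver) to 27.8 (uterus) for members broad in that organ alone. For those broad in all 7 organs they ran from 13.9 (male liver) to 36.2 (uterus). In the other shared regions they ran from 11.6 (male liver) to 28.1 (uterus), so members broad in 1 organ alone were about level with those regions per kb.

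A core was found in 1775 of the 1844 members, with 1010 having 1 core, 765 having several (at most 9) and 69 having none because the peaks of different lists met only through others. Over all 1844 members, with the 69 entered as 0, the median longest core was 1304.5 bp (quartiles 616.5 bp and 2090.5 bp), and all cores together took up a median of 20.5% of the region. In 1757 members the core lay inside the widest peak. Its middle was at a median of 27.6% of the peak's length from the nearer end, against 39.6% in the other shared regions, whose cores took up a median of 40.3% of the region and so had less room to lie near an end. The broad peak extended a median of 4326 bp beyond the core on the longer side and 1122 bp on the shorter side. At least 90% of the extension lay on 1 side in 481 members (27.4%), against 9.87% of the other shared regions. The left side was the longer one in 49.8%, so neither direction along the chromosome was preferred.

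Members made up 3.12% of the shared regions on chromosome X (15 of 480) and 5.10% on chromosome 5 (32 of 628), and up to 12.5% on chromosome 14 (148 of 1180). The remaining chromosomes lay between 6.84% (chromosome 17) and 12.1% (chromosome 20). The median distance from a member to the nearest other member was 69.9 kb, and 848 members (46.0%) had another within 50 kb. The other shared regions, a much larger set, had a median distance of 20.9 kb, and 72.7% had another within 50 kb. Among members broad in a single organ that followed each other on a chromosome, the broad organ was the same in 114 of 186 pairs (61.3%) up to 50 kb apart, in 96 of 327 (29.4%) at 50 to 500 kb and in 180 of 558 (32.3%) beyond. Close neighbors were therefore more often broad in the same organ than distant ones. Whether the caller divided single domains into such pairs was not tested.

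The surroundings of members were also rich in peaks. Within 50 kb on each side, the organs in which a member was broad had 1.61 times (colon) to 2.37 times (uterus) as many peaks on average as around the other shared regions. In organs where it was not broad the ratio was 1.32 (colon) to 1.48 (uterus). In the male liver, for example, this meant 14.5 peaks around broad members, 11.3 around members not broad there and 8.28 around the other shared regions.

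Widths and counts come from the same reads, so the accessibility of the members where they were broad is a description as well. Over the 1801 members with both kinds of organs, the mean CPM was a median of 99.8 over the organs with a broad peak and 52.7 over the organs without. The median log2 ratio per member was 0.85 (quartiles 0.35 and 1.55), it was above 0 in 1616 members (89.7%), and 801 members (44.5%) were at least 2-fold higher where broad. The 43 members broad everywhere have no such ratio. Scaled to the regions with a peak in all 7 lists instead of all peaks, the median was 1.0004, with 1717 members (95.3%) above 0 and 901 (50%) at least 2-fold higher. Most members thus held more counts where they were broad under both scalings, whereas the share past 2-fold depended on the scaling. Counts were summed only inside the peaks of each library. A member was therefore usually counted over more DNA where broad, which by construction raises the sum there. Accessibility over a common stretch was not measured.

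Per kb of called peak, the direction reversed. The median was 13.7 CPM per kb where broad and 16.5 where not, with a median log2 ratio of -0.33, and only 501 members (27.8%) were denser where broad. The wider peaks of most members thus held fewer counts per kb than the shorter peaks of the same member in other organs, although heart, spleen and uterus went against this as given next. The density along single peaks was not measured. More barcodes with an open region and more open DNA per barcode cannot be told apart in these sums.

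The organs differed in this respect, and the values depended on the scaling. Over all 20204 shared regions the median log2 ratio of an organ to the others was -0.55 in the male liver, -0.36 in kidney, -0.17 in colon, -0.16 in spleen, 0.08 in heart and lung and 0.36 in uterus, since the share of a library in the shared regions was 84.8% for uterus and 52.5% for the male liver. With counts scaled to the shared regions instead, the median log2 ratio of an organ where members were broad to the organs where they were not was 0.48 in lung, 0.58 in colon, 0.82 in heart, 0.98 in spleen, 1.10 in kidney, 1.11 in the male liver and 1.26 in uterus. All 7 organs were above 0 under both scalings. Per kb of peak, uterus (0.77), spleen (0.11) and heart (0.03) were above 0 and the male liver (-0.34), colon (-0.30) and lung (-0.30) below under both scalings. Kidney changed sign, with 0.07 under this scaling and -0.28 under the other. Uterus, heart and spleen also had the highest CPM per kb over all peaks in the other shared regions.

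Members broad in 1 organ alone had their highest median CPM in that organ for all 7 organs. The 63 heart members had a median of 111 CPM in heart against 76.7 in uterus and 26.0 (male liver) to 44.5 (lung) elsewhere. The 51 kidney members had 97.4 in kidney and 23.6 (spleen) to 34.7 (lung) elsewhere, and the 49 spleen members 91.6 in spleen, 53.6 in colon and 18.8 (kidney) to 47.5 (lung) elsewhere. The 16 uterus members had 170 in uterus and 9.54 (kidney) to 33.4 (heart) elsewhere. The organ with the broad peak also had the highest CPM in 48, 40, 42 and 16 of them, respectively. Among the other shared regions, heart was highest in 15.3%, kidney in 9%, spleen in 12.3% and uterus in 38.9%.

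The 541 male liver members had 85.4 CPM in the male liver, 45.9 in uterus, 44.3 in kidney, 42.1 in lung, 39.2 in heart, 28.2 in colon and 27.5 in spleen. The male liver was the highest organ in 350 of them (64.7%), although it was the highest in only 6.07% of the other shared regions. In colon and lung a further organ was nearly level in CPM over all peaks. The 226 colon members had 80.7 in colon and 75.1 in spleen, and colon was highest in 100 (44.2%, against 9.65% of the other shared regions) and spleen in 70 (31.0%, against 12.3%). The 146 lung members had 90.5 in lung and 89.7 in uterus, and lung was highest in 57 (39.0%, against 8.70%) and uterus in 63 (43.2%, against 38.9%). Of all counts in the shared regions, however, the lung members held 2.10% in lung and 1.63% in uterus. The colon members held 3.22% in colon and 2.82% in spleen. Under that scaling the further organ was less level.

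**Figure D4:**
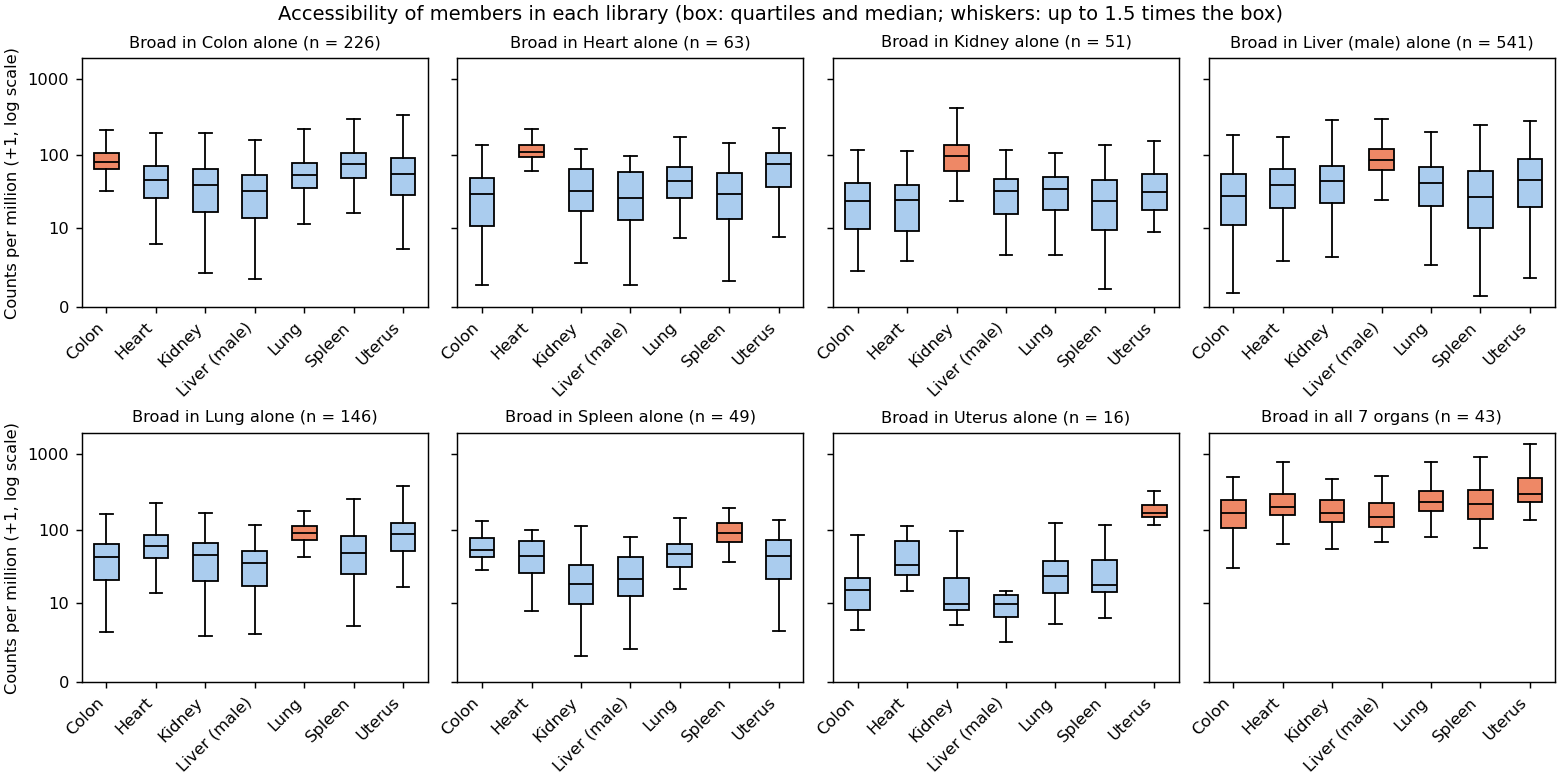
CPM (plus 1, log axis) of the members in each of the 7 libraries, for the members broad in each organ alone and those broad in all 7 organs. Boxes show quartiles and median, whiskers reach to the last member within 1.5 times the box height and members beyond are not drawn. The orange box is the organ with the broad peak, which lies highest in the heart, kidney, male liver, spleen and uterus panels and level with spleen or uterus in the colon and lung panels.

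A CPM at least 2-fold above the median of the other 6 organs was found in 16 of the 16 uterus members (18.8% of all shared regions), 48 of the 63 heart members (76.2%, against 14.7%), 33 of the 51 kidney members (64.7%, against 7.82%), 30 of the 49 spleen members (61.2%, against 5.62%), 322 of the 541 male liver members (59.5%, against 7.04%), 56 of the 146 lung members (38.4%, against 9.62%) and 77 of the 226 colon members (34.1%, against 5.11%). These shares rest on the reads that also set the widths and are given as a description. Scaled to the shared regions, the counts were 15 in uterus (10% of all shared regions), 45 in heart (12.7%), 39 in kidney (11.5%), 31 in spleen (5.85%), 379 in the male liver (11.0%), 50 in lung (7.83%) and 92 in colon (6.67%). The opposite case, 2-fold higher CPM without a broad peak, was found for 229 members in uterus (13.9% of those not broad there), 134 in kidney (8.77%), 93 in heart (6.20%), 78 in spleen (5.29%), 68 in lung (5.68%), 25 in colon (2.08%) and 16 in the male liver (1.86%). These shares were below those of all shared regions in uterus, heart, lung, colon and the male liver. They were near them in spleen (5.29% against 5.62%) and kidney (8.77% against 7.82%). Members not broad in an organ are broad in another by rule, and this case was counted only in CPM over all peaks.

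Within a library, accessibility can be spread evenly over the barcodes or held by some of them. This was described by the excess squared coefficient of variation, the variation of fragments per barcode beyond that of random counting at each barcode's depth, which is 0 for an even spread. Members with fewer than 200 counts in a library were left out there, which was 3 (lung) to 65 (spleen) of the 1844. Over 1801 members, the median was 0.46 where broad and 0.64 where not, and the median difference per member was -0.12, with 620 members (34.4%) above 0. Fragments were summed inside called peaks, so usually more DNA was pooled per barcode where a member was broad, and its part was not tested. In most members the value was lower where they were broad. Members broad in 1 organ alone went against this in uterus (median 1.12, against 0.68 in the members not broad there) and heart (0.50 against 0.44), and not in the other 5 organs.

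Members broad in 1 organ alone were less even in that organ than those broad in all 7. The medians were 1.12 against 0.39 in uterus, 0.64 against 0.29 in lung, 0.52 against 0.40 in the male liver, 0.50 against 0.23 in heart, 0.45 against 0.25 in colon, 0.37 against 0.25 in kidney and 0.23 against 0.12 in spleen. The member in the EGFL7 window that was broad in all organs went against this, with 2.55 in colon, 2.41 in uterus, 1.71 in kidney, 1.66 in the male liver, 1.53 in lung, 1.21 in spleen and 0.89 in heart. The widest member had 0.24 in the male liver, 0.56 in lung, 0.35 in uterus, 0.28 in heart, 0.24 in kidney, 0.21 in colon and -0.01 in spleen, so the organ with its broad peak lay within the range of the others.

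The female liver was the only library with no part in the choice of members. It had a broad peak in 338 of the 1844 (18.3%), against 387 of all 20204 shared regions (1.92%) and 49 of the 18360 others (0.267%). Of the 986 members broad in the male liver 216 (21.9%) were broad in the female liver, and of the 858 not broad there 122 (14.2%). Of the 43 members broad in all 7 organs 39 (90.7%) were broad in it, but of the 541 broad in the male liver alone only 40 (7.39%), and 24 of the 226 (10.6%) broad in colon alone. Among these sets, the share was thus highest for the members broad in all 7 organs. A total of 2 members had no peak and 7 no count in the female liver.

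The accessibility of members in the female liver was closest to colon and spleen. Its CPM was within 2-fold of colon in 80.6% of 1837 members, of spleen in 77.7%, of lung in 68.7%, of heart in 64.9%, of kidney in 60.4%, of the male liver in 54.8% and of uterus in 52.2%. Many members were chosen for their width in the male liver, so the same was counted in the other shared regions, where the share was 80.7% for colon, 78.6% for spleen, 73.9% for lung, 68.8% for heart, 66.2% for the male liver, 64.0% for kidney and 60.7% for uterus. Colon and spleen came first in both sets, and the male liver lay lower among members than among the other shared regions. The members broad in the male liver alone had a median of 38.9 CPM in the female and 85.4 in the male liver, with a median log2 ratio of -1.32, and were higher in the female liver in 52 of 541. The members broad in spleen alone lay at 56.1 in the female and 21.9 in the male liver (log2 ratio 1.44, higher in 47 of 49), and those broad in colon alone at 62.4 and 32.9 (0.85, higher in 196 of 226). Of all 20204 shared regions 59.8% were higher in the female liver, with a median log2 ratio of 0.27. The liver libraries differed in animal, depth and peak list, and the part of each in these values was not tested. The female liver list held 165942 peaks with a median width of 399 bp, and the male liver list 110993 with 514 bp. The widest member still stood out, with 224 CPM (95% Poisson interval 195 to 255) and a widest peak of 9291 bp among 25 peaks in the female liver.

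Single barcodes showed that the female liver held both kinds of profile. Of each barcode's counts in regions with a peak in all 7 lists, the 541 members broad in the male liver alone received a median of 10.9% in the male liver (10th percentile 4.61%, 90th 13.7%) and of 3.47% in the female liver (2.38% and 9.15%). The median was 4.88% in kidney, 3.77% in lung, 3.74% in uterus, 3.47% in heart, 3.35% in spleen and 3.26% in colon. The highest 99th percentile among the other 6 organs was 7.07%, in kidney, a limit taken after the values were seen. This share was reached by 9620 of 11935 male liver barcodes (80.6%) and 154 of 728 female liver barcodes (21.2%). By the choice of the limit, at most about 1% of the barcodes of any other organ can reach it. The male liver in turn had a second, smaller peak of the distribution near 4%. By this measure, most barcodes of the female liver lay at the level of the organs other than liver and kidney. A smaller set lay near that of the male liver. The 541 members were chosen for their width in the male liver, and each library was counted in its own peaks. Their median widest peak was 7170 bp in the male and 2413 bp in the female liver. The shares of the 2 liver libraries are therefore not over the same stretches. Doublets were not removed for these values.

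**Figure D5:**
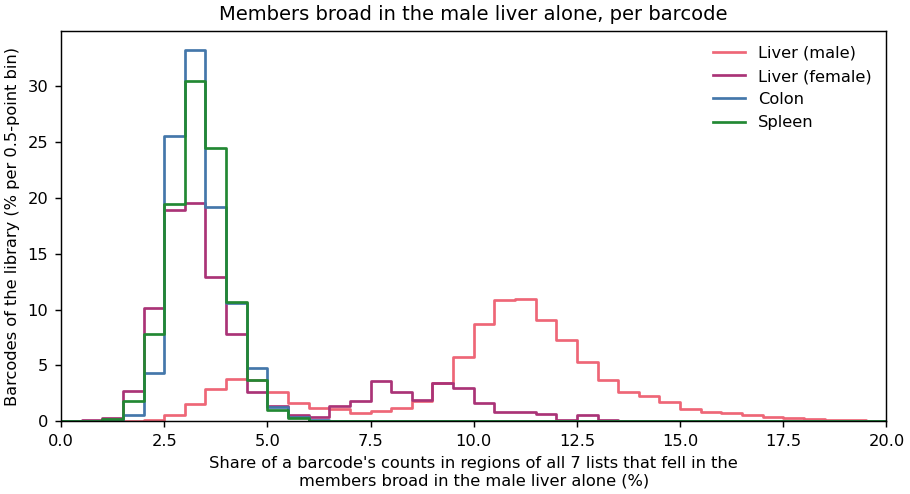
Distribution over barcodes (vertical axis, percent of the library's barcodes per bin of 0.5 percentage points) of the share of a barcode's counts in regions of all 7 lists that fell in the members broad in the male liver alone (horizontal axis, percent). Colon and spleen form 1 peak near 3%, the male liver a main peak near 11% with a smaller one near 4%, and the female liver a main peak near 3% with a smaller set of barcodes beyond 7%.

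Last, some peaks that met the overlap rule were very short. In 26 members the widest peak of at least 1 list was under 100 bp, in 17 of them in uterus, and 2 members had a list without any count. The 5 members with the largest ratio of widest to narrowest peak were all of this kind, with uterus peaks of 1 bp (chr6:70885172-70890435), 4 bp (chr3:72491566-72501933), 9 bp (chr16:60092698-60097895), 11 bp (chr13:61804856-61822762) and 13 bp (chr2:148930249-148945220). At the first of these, colon had a peak of 5264 bp and 40.2 CPM, and uterus no count, which allows a level of up to 0.144 CPM (3 fragments, the one-sided 95% limit, counting error only). Counts were summed inside called peaks, so at such members a low CPM in uterus says little about the rest of the region there. Requiring a peak of at least 100 bp in every list left 1818 members.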

How the data were processed

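The authors processed the scATAC-seq reads with Cell Ranger ATAC 1.2.0 (submitters' processing notes) and deposited, for each of 8 libraries, a list of peaks, a list of barcodes and, per peak and barcode, how many cut ends were found. The deposited counts are not normalized, and 75.7% to 95.5% of the entries are even, since a fragment usually has both ends in 1 peak. The sources used here do not name the build of the peaks, no genome sequence was used, and positions are those of the deposited peaks, counted from 1.

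Peaks of 7 libraries were merged at an overlap of 1 bp, and a member needed a peak in all 7 lists and 1 peak of 5000 bp or wider. Counts were summed over all peaks of a library in a region, over barcodes with at least 1000 counts, and given per 1000000 counts in peaks (CPM). Intervals are exact Poisson intervals at 95% on counts divided by 2, and a count of 0 was given a limit of 3 fragments. They cover counting error only. Variation between barcodes was computed on fragments and checked on simulated data. Doublets were not removed. Since each organ has 1 library, every value is a description without a test. Named were the 10 members with the widest peak, the widest member broad in each organ alone, 5 members broad in all organs with the highest lowest width, the 5 largest width ratios, the 3 with the most peaks in 1 organ, those in the displayed EGFL7 and JCHAIN windows, and the 3 nearest the limit on either side. Members, lists and descriptions were chosen with earlier results of these data known. Python 3.11.15 with numpy 2.4.6, scipy 1.17.1, pandas 2.3.3 and matplotlib 3.10.9 was used. Other widths, merging rules, scalings, barcode minimums, equal list lengths and the omission of each library were tried as alternatives.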

Additional observations from a re-analysis of the deposited data

How the results depend on the processing

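The width limit set most counts, since fewer peaks pass a higher one. From 4000 bp the members numbered 2955 and from 8000 bp 656, and the share broad in 1 organ was 53.0% at 4000 bp, 65.5% at 6000 bp and 74.4% at 8000 bp. At 4000 bp, 1292 were broad in colon, 670 in heart, 607 in kidney, 1164 in lung, 704 in spleen and 345 in uterus. At 6000 bp these were 328, 211, 191, 394, 210 and 103. At 8000 bp they were 109, 82, 87, 168, 67 and 43, with 447 in the male liver, which led at every limit. The female liver was broad in 596 members at 4000 bp, 183 at 6000 bp and 54 at 8000 bp. The log2 ratio of CPM where broad to where not was 0.77 at 4000 bp, 0.94 at 6000 bp, 1.07 at 8000 bp and 1.0004 when scaled to the shared regions, and it reversed to -0.33 per kb of peak, which by construction divides by the larger width. The sum per region in turn usually counts more DNA where broad, also by construction. Leaving out 1 library gave 1311 (without the male liver) to 1952 members (without uterus), 54.8% (male liver) to 64.5% (lung) broad in 1 organ, and a log2 ratio of 0.71 (male liver) to 0.95 (uterus). The difference in variation between barcodes was -1.70 on counts in place of fragments, where paired cut ends add variation by construction. The minimum of 100 bp per list and the omissions for the log2 ratio were added after the data were seen. Of 80 alternative values, 37 stayed within 1.5 times a count or within the interval of the value, 42 moved and 1 reversed. With 1 library per organ no replicate error can be given. No paired analysis was possible because each group holds 1 library, so that no groups share as many as 2 replicate numbers, and no result comes from a test.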
